A study of Mus musculus with 12 samples.

Results

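The genes described here encode 35 lysosomal hydrolases, lysosomal membrane proteins and their regulators in the mouse brain after traumatic brain injury (TBI). They were chosen by symbol, with earlier results of these data known, and matched to Ensembl identifiers in both deposited count tables. All 35 were found among the 35697 identifiers of the first table and the 55637 of the other. Bulk RNA was sequenced from brain tissue of wild-type adult male C57BL/6J mice in 4 groups of 3 mice. In the batch of 2018, sham mice, which had the surgery without the blow, were set against mice 7 days after TBI by controlled cortical impact, a mechanical blow to the exposed cortex. In the batch of 2022, injured mice without drug in their labels (TBI controls) were set against injured mice given zileuton, an inhibitor of 5-lipoxygenase, at 10 mg per kg per day by intraperitoneal injection in corn oil. The labels do not say whether the TBI controls received corn oil, and they put all TBI controls at 7 days after injury. The source labels of the zileuton mice give 7, 8 and 9 days, while their library names all give 7. The study itself describes a vehicle group and a zileuton group, both sampled around the contusion at 7 days. If the source labels hold, drug and time after injury cannot be fully told apart. Sham mice were sequenced only in 2018 and zileuton mice only in 2022, and the 2 tables were made separately, so no level was tested between batches.

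Lysosomes are acidic compartments in which proteins, glycans and lipids from endocytosis, phagocytosis and autophagy are broken down. Their hydrolases work at low pH, which a proton pump, the V-ATPase, maintains, and heavily glycosylated proteins line the inner face of their membrane. In the brain, neurons depend on them for turnover of long-lived components, and microglia and macrophages are rich in them when they clear debris. Inherited loss of single lysosomal enzymes causes storage diseases in which the brain is often affected.

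The transcription factor TFEB drives many lysosomal genes through a palindromic site known as the CLEAR element, whose core is TCACGTGA. RefSeq promoters of build GRCm38.p6, from 250 bases before to 50 bases after the start of each gene, were given for 31 of the 35 genes, and Asah1, Atp6v0d2, Ctsb and Ctsh were not among them. The 4 genes with an exact core, searched on both strands, are shown because 2 of them passed the test as higher after TBI and 2 had lower levels. Each line gives bases 5′ to 3′ on the strand of the gene, with the core in capitals.
Ctsd, chr7:142387903-142387942, minus strand: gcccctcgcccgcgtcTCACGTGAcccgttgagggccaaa
Ctsa, chr2:164833744-164833783, plus strand: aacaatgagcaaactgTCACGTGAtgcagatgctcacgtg
Mcoln1, chr8:3500457-3500496, plus strand: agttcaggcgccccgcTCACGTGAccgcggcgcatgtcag
Atp6v1a, chr16:44139368-44139407, minus strand: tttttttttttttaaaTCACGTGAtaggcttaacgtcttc
The core began 99 bases before the start in Ctsd, 13 in Ctsa, 46 in Mcoln1 and 132 in Atp6v1a, and Ctsa held a further copy that overlaps the end of the printed stretch. Over all 27025 genes with a promoter, 1.12% held the core. The shorter E-box CACGTG, which lies inside the core, was in 10 of the 31 genes and in 8.09% of all genes. GAGGAAGT, a site of the myeloid factor PU.1, was in Ctsc, Ctss and Gusb, that is 3 of the 31, and in 3.69% of all genes. A match describes the letters of this window and not binding, and the absence of a match says nothing about a factor.

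Total counts were 42929862 to 48684674 in the 2018 libraries and 27845562 to 35453257 in the 2022 libraries. Gfap, an astrocyte gene that marks gliosis, averaged 188 CPM (counts scaled to 1000000 per library with TMM factors) in sham and 2480 CPM after TBI, and 9 of 9 neuron markers were detected, as the labels of brain tissue and injury require. All 6 libraries of 2018 carried Xist at 18.5 to 23.5 CPM beside Y-linked genes such as Ddx3y at 51.6 to 66.7 CPM, whereas Xist was 0.0343 to 0.197 CPM in 2022. The sources used here do not say whether a library held tissue of more than 1 animal, so a value given for a mouse is strictly the value of a library. Xist was at this level in sham and TBI alike, and its part in the results was not tested.

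After TBI, RNA of the lysosomal genes took a larger part of the library. The 35 genes together held 0.455% to 0.483% of the counts in the 3 sham mice and 0.95%, 1.03% and 1.24% in the 3 TBI mice, without overlap. At an adjusted p under 0.05 (edgeR's quasi-likelihood test, adjusted by Benjamini and Hochberg over 19536 genes), 30 of the 35 genes rose and 1, Mcoln1, fell, while 16.8% of all genes tested rose and 11.2% fell. On the log2 scale the median change of the 35 genes was 1.53, and that of all genes tested was 0.02. Since the 35 genes were chosen with earlier results known, these shares describe the list and are no independent test of it. In 30 genes every TBI mouse was above every sham mouse, and in 2, Mcoln1 and Atp6v1a, every TBI mouse was below, where such separation was seen in 24.6% and 19.8% of all genes. All 35 genes passed the filter on low counts, but Atp6v0d2 passed it only through the TBI mice and so had to differ. With at least 10 counts required in every library, which leaves Atp6v0d2 out, 29 genes rose and the median was 1.50. In bulk tissue, more cells of a type and more RNA per cell cannot be told apart.

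**Figure D1:**
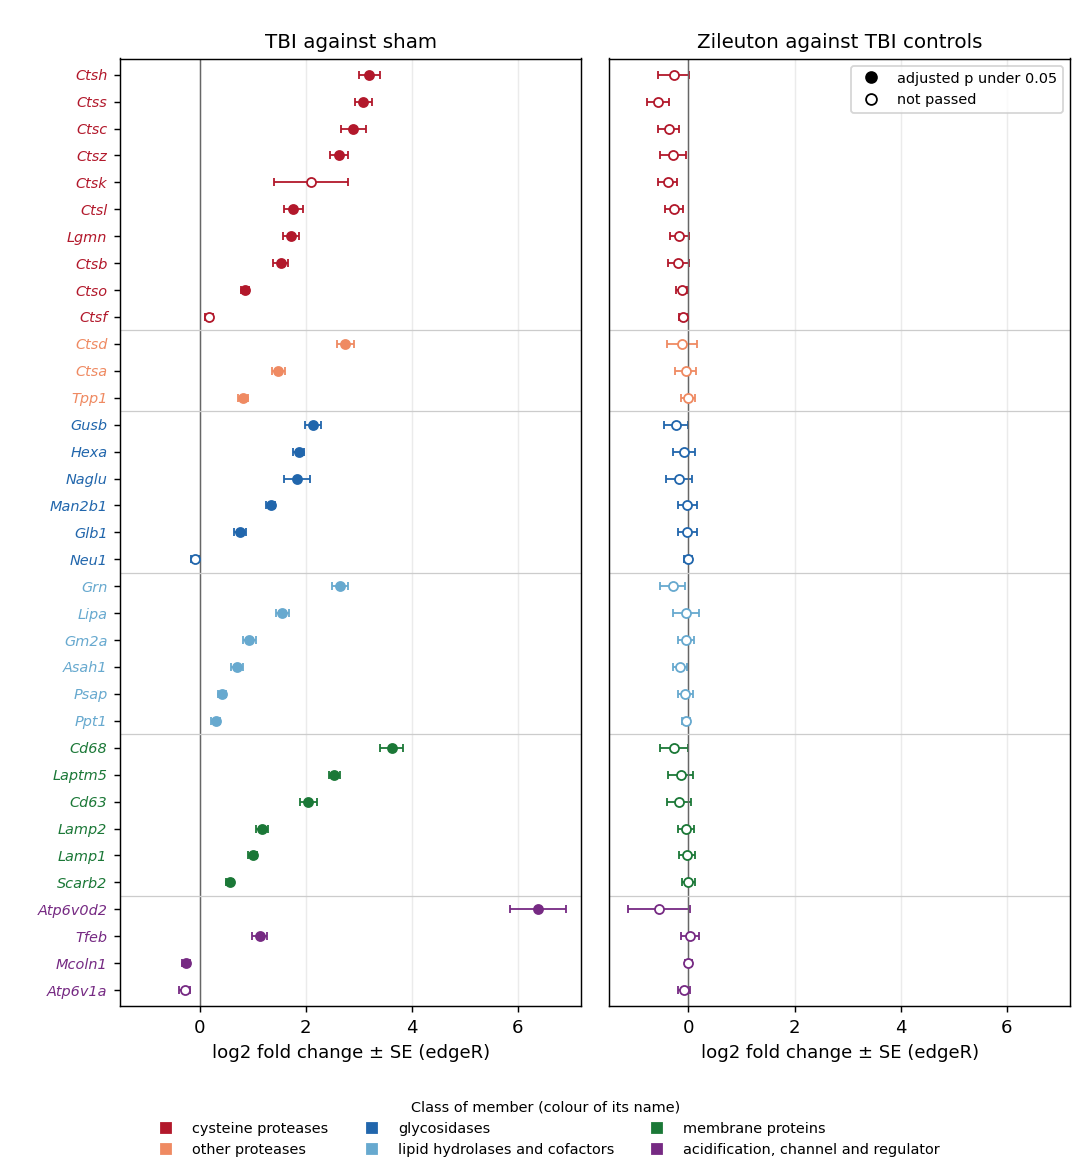
Log2 fold change (edgeR, error bars 1 SE) of each gene after TBI against sham on the left and under zileuton against TBI controls on the right, 3 mice a group, with filled points for an adjusted p under 0.05 and open points for the rest. On the left 30 genes lie above 0 with filled points and Mcoln1 lies below 0, and on the right no point is filled.

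The cysteine proteases, which degrade protein in the lysosomal lumen, rose in 8 of 10 genes with a median log2 fold change of 1.93. Ctss, cathepsin S, trims the invariant chain for antigen presentation and stays active at neutral pH. By FPKM averaged over sham and TBI it was the highest of the class, just above Ctsb. Ctsb led in sham (means of 112 and 46.1 FPKM) and was below Ctss after TBI (335 and 407 FPKM). In CPM, which is not scaled to length, Ctsb was above Ctss in sham (691 and 63.8) and after TBI (1990 and 543). Ctss stood at 49.0, 47.1 and 42.2 FPKM (fragments per kilobase of transcript, scaled to library size, as deposited) in the sham mice and at 324, 401 and 495 FPKM in the TBI mice. The groups were far apart, with a log2 fold change of 3.09 ± 0.157 (SE, n = 3 a group, adjusted p = 7.52e-06). Ctsh, cathepsin H, an aminopeptidase, showed the largest rise of the class. It went from 2.35, 2.85 and 1.96 FPKM to 19.4, 19.8 and 28.9 FPKM, a log2 fold change of 3.20 ± 0.199 (SE, adjusted p = 1.71e-05). Ctsc, which activates granule serine proteases, rose by a log2 fold change of 2.90, and Ctsz, a carboxypeptidase, by 2.63. Smaller rises were seen in Ctsl, with 1.77, Lgmn (legumain, which matures other cathepsins), with 1.72, Ctsb, with 1.53, and Ctso, with 0.86.

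Ctsf and Ctsk did not pass the test. Ctsf, cathepsin F, stood at 10.2, 10.6 and 11.6 FPKM in sham and 11.8, 13.2 and 13.1 FPKM after TBI, with a log2 fold change of 0.18 ± 0.0806 (SE, adjusted p = 0.14). Its CPM overlapped between the groups. Ctsk, the collagen-degrading cathepsin of osteoclasts and fibroblasts, was 2.96, 3.25 and 2.60 FPKM in sham and 5.73, 3.33 and 29.7 FPKM in the TBI mice. A single animal, TBI mouse 3, set the mean, and the log2 fold change of 2.10 ± 0.706 (SE) had an adjusted p of 0.0552. Without that mouse it was 0.57 (adjusted p = 0.156, edgeR), without TBI mouse 1 it was 2.45 (0.0337) and without TBI mouse 2 it was 2.56 (0.00993). In the same mouse 5 genes of fibroblasts and meninges, a list added after Ctsk was seen, summed to 754 CPM, against 429 and 182 CPM in the other TBI mice and 130 to 134 CPM in sham. The 7 genes of osteoclasts and bone, added likewise, summed to 16.4 CPM in it, against 5.38 and 7.61 CPM in the others and 2.10 to 2.63 CPM in sham. Of these 7, 5 were too low to be tested. In TBI mouse 3 most of the sum was Mmp9, Ibsp and Sp7, at 7.59, 3.6 and 2.88 CPM. Ocstamp, Dcstamp and Calcr were only 0.603, 0.278 and 0.116 CPM there. The part of both lists in the result was not tested.

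The other proteases rose in 3 of 3 genes. Ctsd, cathepsin D, the main aspartic protease of the lysosome, was the fourth most abundant of the 35 genes in sham and ranked 2 after TBI by FPKM. Its level was 78.9, 78.7 and 72.0 FPKM in sham and 432, 491 and 680 FPKM after TBI, a log2 fold change of 2.75 ± 0.168 (SE, adjusted p = 1.67e-05). This was 6.74 times the sham mean in CPM, with no overlap. Ctsa, which also shields other lysosomal enzymes from degradation, rose by a log2 fold change of 1.48 and Tpp1, a tripeptidyl peptidase lost in a childhood storage disease of neurons, by 0.82. The annotated Ctsd locus overlaps the protein-coding model Gm49369 on the same strand, and 13 of the 35 genes overlap another gene in GENCODE M21 on GRCm38, so part of their reads may be shared.

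Of the 6 glycosidases, which strip sugars from glycolipids and glycoproteins, 5 rose, with a median log2 fold change of 1.59. Hexa, the alpha subunit of beta-hexosaminidase, which degrades GM2 ganglioside, was the most abundant. It measured 19.7, 22.0 and 19.7 FPKM in sham and 71.6, 72.5 and 88.4 FPKM after TBI, a log2 fold change of 1.87 ± 0.106 (SE, adjusted p = 1.15e-05). Gusb, beta-glucuronidase, rose most, from 3.16, 3.02 and 3.21 FPKM to 11.8, 13.4 and 17.6 FPKM (log2 fold change 2.14 ± 0.148 SE, adjusted p = 2.37e-05). Naglu, which degrades heparan sulfate, rose by 1.84, Man2b1, an alpha-mannosidase, by 1.34 and Glb1, beta-galactosidase, by 0.76 on the log2 scale. Neu1, the sialidase, was the exception, with 47.7, 47.5 and 51.9 CPM in sham and 45.6, 44.1 and 48.3 CPM after TBI. The groups overlapped (log2 fold change -0.09 ± 0.077 SE, adjusted p = 0.423).

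All 6 genes of the class named lipid hydrolases and cofactors rose, over a range from 0.30 to 2.65 on the log2 scale and with a median of 0.82. The upper end was Grn, which is not itself a lipid hydrolase, and the next largest rise was that of Lipa, with 1.56. Psap encodes prosaposin, the precursor of the saposins that present sphingolipids to their hydrolases, and was the most abundant of the 35 genes in both groups. It stood at 577, 541 and 554 FPKM in sham and 765, 776 and 796 FPKM after TBI. The groups did not overlap, yet the log2 fold change was only 0.43 ± 0.076 (SE, adjusted p = 0.00347). Grn, progranulin, which reaches the lysosome partly bound to prosaposin, rose most, from 13.5, 12.6 and 12.2 FPKM to 64.7, 84.2 and 101 FPKM (log2 fold change 2.65 ± 0.153 SE, adjusted p = 1.25e-05). Lipa, the acid lipase of cholesteryl esters, rose by 1.56, Gm2a, the activator of ganglioside breakdown, by 0.94, Asah1, acid ceramidase, by 0.71 and Ppt1, a thioesterase, by 0.30. The call for Ppt1 was a close one, with an adjusted p of 0.0234 in edgeR, and it was lost without any of the 3 sham mice in turn and without TBI mouse 3.

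The membrane proteins rose in 6 of 6 genes, with a median log2 fold change of 1.61. Lamp1, a major glycoprotein of the lysosomal membrane, was the most abundant, with 75.8, 76.1 and 75.5 FPKM in sham and 141, 163 and 167 FPKM after TBI. It rose by a log2 fold change of 1.00 ± 0.0827 (SE, adjusted p = 5.88e-05). Cd68, macrosialin, a membrane glycoprotein typical of phagocytes, rose most of the class. It went from 6.96, 6.06 and 5.47 FPKM to 62.3, 69.1 and 104 FPKM, which is 12.3 times the sham mean in CPM (log2 fold change 3.62 ± 0.212 SE, adjusted p = 1.29e-05). Laptm5, expressed in blood-derived and microglial cells, rose by 2.54, Cd63, a tetraspanin of lysosomes and exosomes, by 2.05, Lamp2 by 1.18 and Scarb2, the receptor that carries glucocerebrosidase to lysosomes, by 0.57. Lamp1, Lamp2 and Scarb2 thus had the smallest rises of the class.

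The genes of acidification, ion release and regulation went in different directions. Atp6v0d2, a V-ATPase subunit of osteoclasts and macrophages located at chr4:19876841-19922605 (GRCm38), was nearly absent from sham, with counts of 2, 4 and 2. The TBI mice had counts of 304, 121 and 277. The ratio of TBI to sham was 89.6, with a 95% interval of 45.2 to 208 from counting error only, or 34.7 to 331 if each fragment gave 2 counts. The fitted log2 fold change of 6.38 ± 0.532 (SE) depends on the prior count, and its test is not used here because the gene passed the filter only through the TBI mice. By level the gene stayed the lowest of the 35, at 2.30, 0.949 and 2.38 FPKM after TBI. Atp6v1a, the catalytic subunit of the same pump, was abundant, at 119, 105 and 105 FPKM in sham and 102, 82.5 and 96.1 FPKM after TBI. All TBI mice were below all sham mice, but the log2 fold change of -0.28 ± 0.106 (SE) had an adjusted p of 0.076. Mcoln1, the lysosomal calcium channel, fell from 7.80, 8.35 and 8.86 FPKM to 6.70, 7.49 and 7.41 FPKM (log2 fold change -0.26 ± 0.0791 SE, adjusted p = 0.0362). That call was lost in 11 of 17 other settings of filter, scaling, test and mice, with no change of direction. Tfeb, which encodes TFEB, rose from a mean of 1.35 to 3.07 FPKM (log2 fold change 1.13 ± 0.138 SE, adjusted p = 0.000483).

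**Figure D2:**
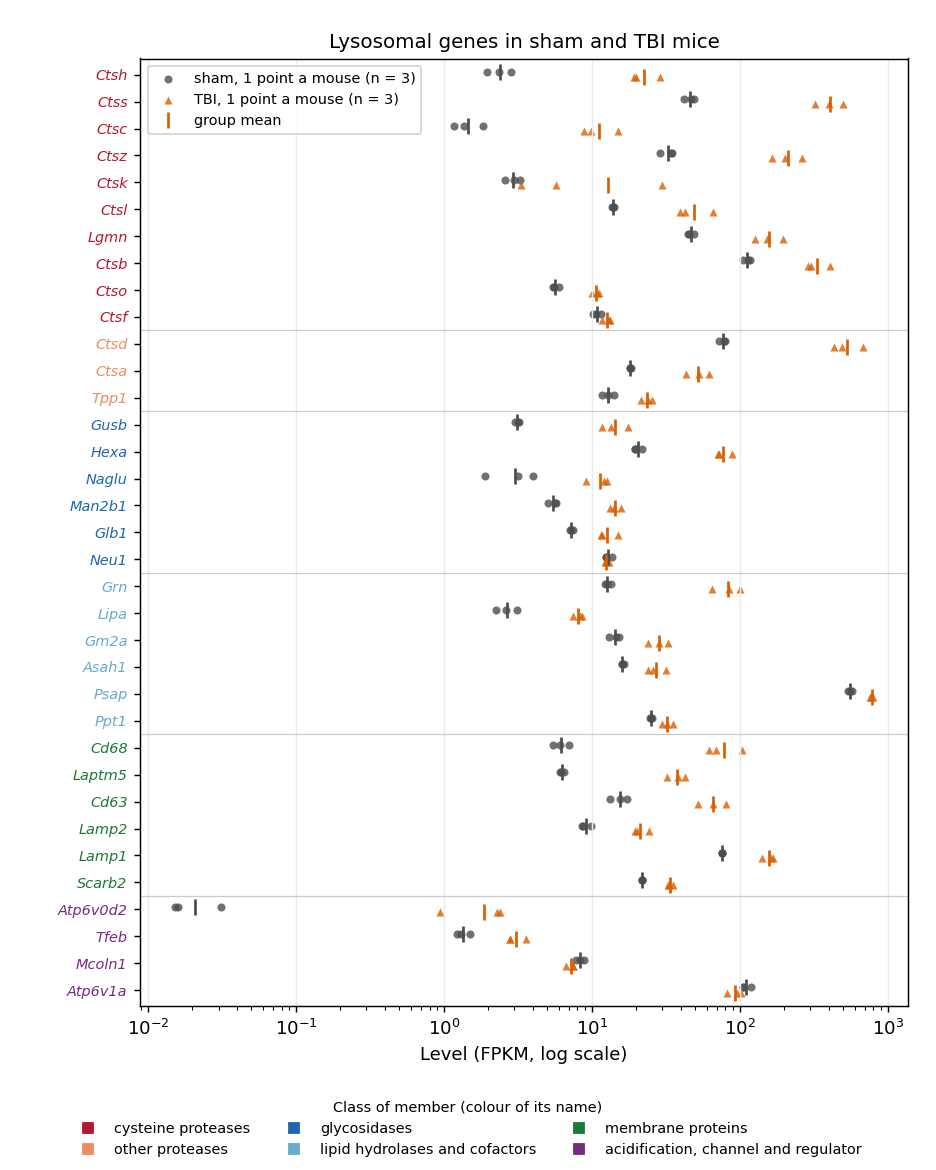
Level of each gene in FPKM (log axis) in the 3 sham mice (circles) and 3 TBI mice (triangles) of 2018, with a bar at each group mean, grouped by class and ordered by fold change within a class. Psap is the most abundant in both groups, Atp6v0d2 moves from below 0.1 to 0.949 to 2.38 FPKM, and only TBI mouse 3 stands apart for Ctsk.

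The TBI mice differed among themselves in the same way for most of these genes. TBI mouse 3 was the highest of its group in 30 of the 35 genes, where it was the highest in 37.7% of all genes tested, and TBI mouse 1 was the lowest in 26 (32.4% of all genes). In sham the median ratio of the highest to the lowest mouse was 1.13 for these genes and 1.22 for all genes, and after TBI it was 1.35 and 1.26. The summed level of 10 identity genes of microglia and macrophages, none of them among the 35, was 1960, 2230 and 3070 CPM in TBI mice 1, 2 and 3. The summed level of 9 neutrophil genes was 16.2, 27.2 and 62.5 CPM in the same order, against 0.798 to 1.45 CPM in sham. In TBI mouse 3 most of that sum was S100a8 and S100a9, at 25.4 and 31.1 CPM. Ly6g, Mpo, Elane and Camp, at 0.0464 to 0.278 CPM in that mouse, were too low to be tested. Of the 5 neutrophil genes tested, 4 passed as higher and Ltf did not (adjusted p = 0.277, edgeR).

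Levels were also set against those identity genes, which include C1qa, C1qb and C1qc of the complement system. Their sum rose from 326 to 391 CPM in sham to 1960 to 3070 CPM after TBI, a log2 difference of 2.72, and 10 of 10 passed the test as higher. C1qa, C1qb and C1qc were the most abundant of them after TBI, with means of 600, 441 and 449 CPM. The log2 fold change was 3.25 for C1qa but 1.81 for Csf1r and 1.91 for Cx3cr1. A ratio to the sum thus depends on which identity genes dominate it, and is no measure of cell content. Relative to that sum, in log2 units, the median of the 35 genes was 1.26 lower after TBI than in sham (difference -1.26). In 24 of the 35 genes the ratio was lower in every TBI mouse than in every sham mouse, as it was for 94.0% of all genes tested. In 4 genes it was higher without overlap, as it was for 1.34% of all genes. These were Atp6v0d2, with a log2 difference in the ratio of 3.44, Cd68 with 0.87, Ctsh with 0.47 and Ctss with 0.35. The sham ratios of Atp6v0d2 rest on counts of 2, 4 and 2, and the gene passed the filter only through the TBI mice. Its ratio, like its test, is therefore not used as a result. For Cd68 the log2 ratio was -5.37, -5.66 and -5.54 in sham and -4.66, -4.74 and -4.56 after TBI. Ctsc, Ctsd, Ctsz, Grn and Laptm5 kept ratios that overlapped between the groups, with differences from -0.19 to 0.16, and so did Ctsk and Naglu, with -1.27 and -0.82. With 3 mice against 3, the two-sided exact permutation test cannot give a p below 0.1, which every ratio without overlap reaches. The most negative differences were -3.01 for Atp6v1a and -2.98 for Mcoln1.

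**Figure D3:**
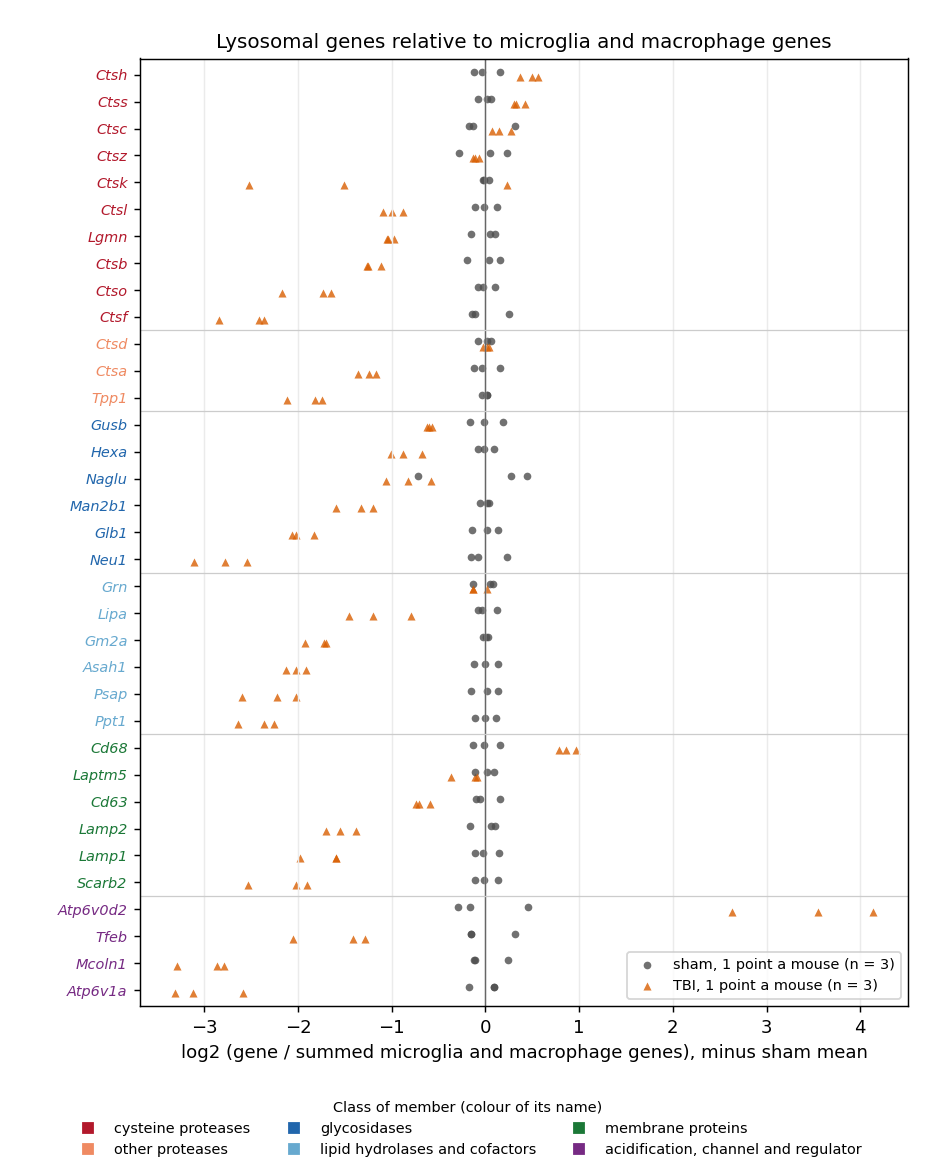
Log2 ratio of each gene to the summed CPM of 10 microglia and macrophage genes, minus its sham mean, in the 3 sham mice (circles) and 3 TBI mice (triangles). Atp6v0d2, Cd68, Ctsh and Ctss lie to the right of sham, Ctsd and Grn lie on it, and 24 genes lie to the left.

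Other cell lists moved as well, and their part in the result was not tested. Homeostatic microglia genes were higher in 8 of 8 (162 to 186 CPM summed in sham, 408 to 631 CPM after TBI), genes of monocytes and macrophages in 8 of 9 (13.2 to 14.6 CPM, then 56.6 to 123 CPM) and astrocyte genes in 6 of 7 (3810 to 4260 CPM, then 7400 to 7730 CPM). Oligodendrocyte genes were higher in 4 of 6 (5280 to 5920 CPM, then 6100 to 11100 CPM) and endothelial genes in 5 of 6 (54.5 to 74.6 CPM, then 77.9 to 130 CPM). Neuron genes fell in 4 of 9, and their sum went from 12000 to 12300 CPM in sham to 7400 to 10200 CPM after TBI. T cell genes were uneven, with 1 of 4 tested higher and sums that overlapped.

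A wider set of 108 lysosome genes outside the 35 moved less uniformly. Both lists were chosen with earlier results of these data known, so the contrast describes these lists only. Of 103 tested, 42 rose and 16 fell after TBI, with a median log2 fold change of 0.12, and the counts below are to be read against the 16.8% of all genes that rose and the 11.2% that fell. Other hydrolases rose in 19 of 28 and fell in 2, with Npc2, the sterol carrier of the lumen, rising from 66.7 CPM on average to 228 CPM (1.77 on the log2 scale) and Ids, iduronate sulfatase, falling from 530 to 389 CPM (-0.45). Other membrane proteins and transporters rose in 10 of 23 and fell in 2. V-ATPase subunits went the other way on balance, with 2 of 19 higher, 7 lower and a median of -0.19. Among them Atp6v1b2 fell from 781 to 610 CPM and Atp6v1g2 from 456 to 365 CPM, while Atp6v0c, at 527 and 449 CPM, did not pass. Genes of mannose 6-phosphate tagging and sorting, which deliver hydrolases, were higher in 2 of 12 and lower in 1, Sort1 (sortilin), with means of 565 and 429 CPM. The MiT/TFE factors and the lysosomal mTORC1 machinery, which control lysosome gene expression, were higher in 6 of 17 and lower in 4. Of 4 cathepsin inhibitors tested, 3 rose, with Cst3, cystatin C, going from 1020 to 1840 CPM.

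The batch of 2022 asked whether zileuton changed these genes in injured tissue, and none of the 35 passed. At an adjusted p under 0.05 there were 0 calls among them and 0.0% among the 17363 genes tested by edgeR. DESeq2 and limma also gave 0 among them. Over all genes, DESeq2 called 6 higher and 22 lower of 17363, and limma on log2(value + 1) called 0 higher and 4 lower of 17503. The smallest adjusted p of the 35 was 0.713. At an unadjusted p under 0.05 there was 1 lower gene, Ctss, and 0 higher, where 3.9% of all genes were lower and 2.93% higher. The log2 fold change was below 0 in 32 of the 35, against 49.3% of all genes tested, with a median of -0.12. That count came from counts scaled by TMM. On log2 TPM (length-scaled transcript values, as deposited) limma put 20 of the 35 below 0, against 38.3% of all genes, whose median there was 0.05. Without TBI control C edgeR put 16 of 35 below 0, against 49.7% of all genes, with a median of 0.01 for the 35.

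Ctss measured 354, 432 and 610 CPM in TBI controls A, B and C and 382, 293 and 265 CPM in zileuton mice A, B and C. The groups overlapped, since zileuton mouse A lay between controls A and B. The log2 fold change was -0.57 ± 0.209 (SE), with an unadjusted edgeR p of 0.0253 and an adjusted p of 0.713, and it was -0.33 without control C. Ctsk alone was lower in every zileuton mouse than in every control, a separation seen downward in 7.04% and upward in 6.51% of all genes, and upward in 0 of the 35. It measured 4.93, 4.77 and 6.66 CPM in controls and 4.34, 4.14 and 3.97 CPM under zileuton. The log2 fold change was -0.39 ± 0.178 (SE), with an adjusted edgeR p of 0.713. The cysteine proteases had 10 of 10 log2 fold changes below 0, from -0.57 to -0.10, where 49.3% of all genes were below 0. Among them Ctsc had -0.37 (50.7, 62.5 and 60.2 CPM, then 60.8, 39.0 and 34.5 CPM). Over all 35 genes the count below 0 was smaller on log2 TPM and without control C, as given above, and no such count is given for the class.

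The remaining classes lay closer to 0. Ctsd was 2270, 3930 and 4870 CPM in controls and 4280, 3270 and 2660 CPM under zileuton, which overlap widely (log2 fold change -0.12 ± 0.276 SE). Cd68 was 93.4, 170 and 184 CPM and then 152, 125 and 91.6 CPM (-0.28 ± 0.262 SE). Atp6v0d2 was 1.40, 3.54 and 8.91 CPM and then 4.57, 2.76 and 2.05 CPM (-0.56 ± 0.589 SE), so both Cd68 and Atp6v0d2 varied more within groups than between them. Lamp1 (-0.03), Psap (-0.06), Hexa (-0.09), Mcoln1 (0.00), Neu1 (0.00) and Tfeb (0.03) differed by under 0.1 on the log2 scale. Grn had -0.30, and Ctsa, Tpp1, the other glycosidases, lipid hydrolases, membrane proteins and Atp6v1a ranged within -0.24 to 0.00. The standard errors of 0.0728 to 0.589 bound what 3 mice a group could show.

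Spread between mice was larger here than for other genes. The median ratio of the highest to the lowest mouse was 1.51 in controls and 1.40 under zileuton for the 35 genes, against 1.24 and 1.21 over all genes. Control A was the lowest of its group in 32 of the 35 genes (36.4% of all genes) and control C the highest in 30 (36.7%). Zileuton mouse A was the highest of its group in 32 (36.7%) and zileuton mouse C the lowest in 33 (31.7%). The 35 genes held 1.11%, 1.52% and 1.76% of counts in controls A, B and C and 1.62%, 1.25% and 1.11% in zileuton mice A, B and C. The identity genes of microglia and macrophages ran in the same order of mice, with sums of 1670, 2280 and 2690 CPM and then 2530, 1820 and 1600 CPM.

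**Figure D4:**
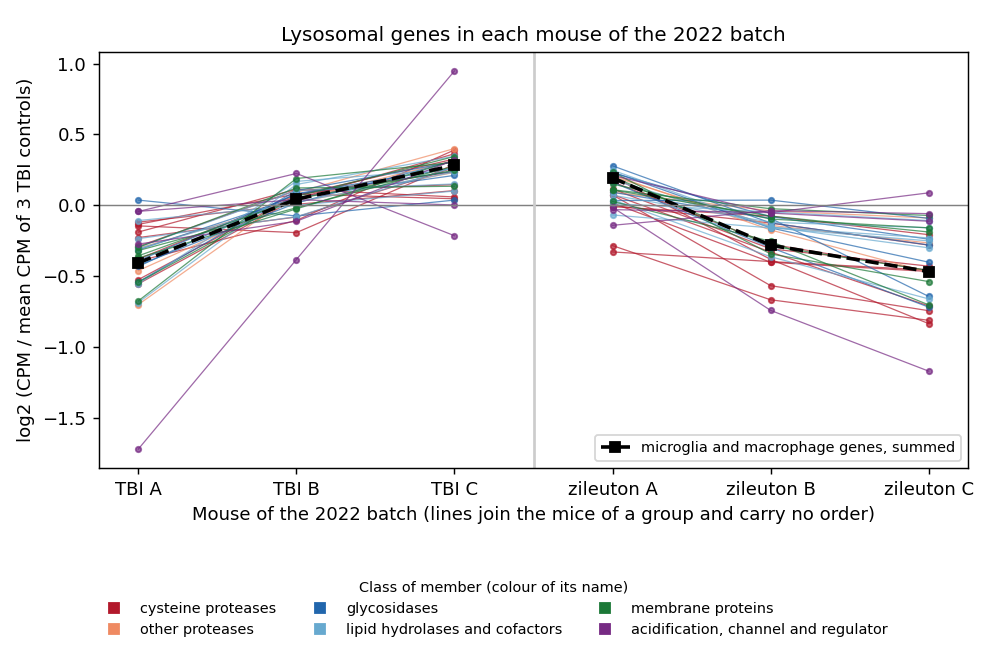
Log2 of the CPM of each of the 35 genes in every mouse of 2022 over its mean in the 3 TBI controls, coloured by class, with the summed microglia and macrophage genes as a black dashed line. Control A lies low and control C high for most genes, zileuton mouse A lies high and zileuton mouse C low, and the black line takes the same course.

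Relative to the summed identity genes, the median log2 difference of the 35 genes between zileuton and controls was 0.06, while the sum itself differed by -0.16. Ctss was lower in this ratio without overlap, with a log2 difference of -0.39, as were 0.973% of all genes. Hexa and Man2b1 were higher without overlap, with 0.08 and 0.16, as were 3.31% of all genes. Oligodendrocyte genes summed to 4170 CPM in control A against 7450 to 9280 CPM in the other 5 mice, so that library differed in more than lysosomal genes, and its part in the result was not tested. Without control A the median log2 fold change of the 35 genes was -0.26, with 4 genes lower at an unadjusted edgeR p under 0.05, as were 3.85% of all genes. Without zileuton mouse A it was -0.22 with 5 genes lower (5.94% of all genes), and in neither case did any gene pass the adjusted threshold. Of the 103 other lysosome genes tested, 0 passed the adjusted threshold in edgeR and 1 had an unadjusted p under 0.05.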

How the data were processed

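RNA from 12 mice was analysed, 3 in each of 4 groups taken from the labels. The authors deposited raw counts per gene and FPKM for the 2018 batch, and estimated counts and TPM for the 2022 batch. The submitters' processing notes name HISAT2, featureCounts, Subread, DESeq2 and GRCm39 with no role, and the 13.0% to 15.2% of non-whole values in 2022 came from a step not given in the sources used here. Strand use is not given there either. The plan assumed raw counts throughout, and the estimated counts were rounded. Among counts of 1 to 20 in 2018, 62.3% to 64.4% were even, so a fragment may often count as 2.

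The batches were fitted separately by edgeR 4.0.16 under R 4.3.3, using filterByExpr, TMM scaling, glmQLFit and glmQLFTest, with p-values adjusted by Benjamini and Hochberg over all genes tested, at a threshold of 0.05. No covariate was used. The methods were tested on simulated data. Alternatives used DESeq2 1.42.0, limma 3.58.1 on log2(value + 1) or log2(value + 0.1) of FPKM or TPM with a mean of at least 0.5, the two-sample test with equal variances that the study names, other scalings and filters, and leaving out each mouse. Where nothing says that samples came from separate cages or preparations, p-values measure the spread between these samples. Figures used Python 3.11.15 and matplotlib 3.10.9.

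The genes, lists and classes were chosen with earlier results of these data known. In each class the most abundant gene, the largest rise, and each gene that fell or did not pass are given in full, and genes outside the 35 come from fixed lists, at most 3 a list. Lists of fibroblast and bone genes were added after seeing the data. Symbols matched 34808 identifiers in 2018 and 52081 in 2022. Positions are from GENCODE M21 on GRCm38, which is not the build of the notes, and serve only to place genes. Same-numbered mice did not deviate together (correlations of -0.0224, -0.1315 and -0.0892 in 2018, and -0.3479, 0.0495 and -0.3446 for the column numbers of 2022). The values thus gave no ground for pairing mice by number, but so few correlations cannot exclude a shared preparation.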

Additional observations from a re-analysis of the deposited data

How the results depend on the processing

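Of 17 other settings for TBI against sham, the number of these genes that rose stayed between 25 (the equal-variance test) and 31, and no named gene changed direction. The number that fell was 0 with library totals alone, limma on log2(value + 1) with or without a filter, limma on log2(value + 0.1), the equal-variance test, the length trend removed and the replicate block, and 2 with DESeq2 and without a filter, where Atp6v1a joined Mcoln1 (adjusted p 0.023 and 0.048). Leaving out 1 mouse gave 0 to 1. Over all genes, 1761 of 15873 rose in the equal-variance test and 3679 of 19536 with library totals alone, the fewest and the most of any setting. Those that fell ran from 864 of 15873 in the equal-variance test to 2793 of 19536 in DESeq2. The median log2 fold change was 1.32 in limma on log2(value + 1) with or without a filter and 1.33 to 1.60 with 1 mouse left out, lowest without TBI mouse 3. For other lysosome genes, those that fell numbered 8 in limma without a filter, 7 in the equal-variance test and 8 to 16 with 1 mouse left out. Relative to microglia and macrophage genes, the median was -1.12 without C1qa. Ppt1 lost its call in 7 settings, with an adjusted p of up to 0.0975. Under the replicate block 29 genes rose, 0 fell and the median was 1.46.

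For zileuton, 0 of the genes passed the adjusted threshold in every setting. Over all genes the calls were most numerous in DESeq2, with 6 higher and 22 lower of 17363. Lower genes at an unadjusted p under 0.05 numbered 2 without a filter, where 3.47% of all genes were lower, and 0 to 5 with 1 mouse left out (2.49% to 5.94%). They numbered 0 in limma on log2(value + 1) with or without a filter (2.34% and 1.86% of all genes). In the equal-variance test (1.85%) and the replicate block (2.51%) they also numbered 0. Log2 fold changes below 0 numbered 20 in each limma setting and 21 in the equal-variance test, where 38.3% of all genes (42.5% in limma without a filter) were below 0, and 16 to 34 with 1 mouse left out, where 48.9% to 50.7% were, and the median ran from -0.26 to 0.01. Psap (0.00) and Lamp1 (0.04) changed sign in each limma setting, and Lamp1 (0.04) in the equal-variance test, settings in which the median of all genes was itself 0.02 to 0.06. Without TBI control C, Ctsd (0.14), Psap (0.01), Atp6v0d2 (0.33), Hexa (0.10) and Lamp1 (0.13) changed sign, as did Lamp1 (0.00) without zileuton mouse B and Ctsd (0.04), Hexa (0.05) and Lamp1 (0.04) without zileuton mouse C. With 1 mouse left out, Ctsd thus ran from -0.37 to 0.14, Psap from -0.19 to 0.01, Atp6v0d2 from -0.98 to 0.33, Hexa from -0.28 to 0.10 and Lamp1 from -0.17 to 0.13. The cause was not tested. Counting error limits Atp6v0d2 in sham, and 3 mice a group limit the rest.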

Other observations

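Among the other lysosome genes, 4 that stood out by fold were chosen here after their values were seen. Cst7, cystatin F, an inhibitor of cathepsins C and L that is made by leukocytes and activated microglia, measured 0, 0.238 and 0.273 CPM in sham and 8.55, 21.7 and 29.1 CPM after TBI. Acp5, the tartrate-resistant acid phosphatase of osteoclasts and macrophages, measured 0.51, 0.0432 and 0.0841 CPM in sham and 6.03, 3.73 and 18.9 CPM after TBI, highest in TBI mouse 3. Slc15a3, a lysosomal peptide and histidine transporter of immune cells, went from a mean of 1.24 to 20.1 CPM, and Tfec, the MiT/TFE family member of macrophages, from 0.0368 to 1.26 CPM. No test is given for them, since they were picked by this difference. In 2022 the means of Cst7 were 21.1 CPM in controls and 19.6 CPM under zileuton, and those of Acp5 were 6.48 and 4.10 CPM.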
